A study of Mus musculus with 14 samples.

Results

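The 30 genes of cholesterol synthesis and protein prenylation were followed in microglia, the resident macrophages of the brain, of aged mice whose CD22 was blocked. They were taken by symbol from a table of 24394 named genes. All 30 were found there, and all 30 passed the filter on low values that left 11646 genes for testing. They fall into 4 groups by role: 8 genes of the mevalonate trunk and its supply, 11 of the sterol branch, 6 of the isoprenoid branch with the prenyltransferases, and 5 that control the pathway through the transcription factor SREBP2 or carry sterol inside the cell.

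Animals of the strain C57BL/6, all 18 months old, carried an osmotic pump that delivered antibody into the cerebrospinal fluid for 1 month. One group received a CD22-blocking antibody, directed at a sialic acid receptor that inhibits signaling, and the other a control IgG, so that surgery, infusion and age were shared. About 20000 living cells positive for CD11b and low for CD45 were sorted from the hemisphere opposite to the cannula, and each group gave 7 RNA-seq libraries. Whether every library is from its own animal is not in the labels, and p-values therefore describe spread among these libraries.

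Mammalian cells build both sterols and prenyl groups from mevalonate. The trunk leads through isopentenyl diphosphate to farnesyl diphosphate, where the route divides: squalene synthase commits it to cholesterol, and geranylgeranyl diphosphate synthase lengthens it to the lipid that prenyltransferases attach to small GTPases, among them the Rap and Rab families. When membrane sterol is low, SCAP carries SREBP2 out of the endoplasmic reticulum and the freed factor switches on most genes of the trunk and the sterol branch, while the Insig proteins hold it back when sterol is plentiful. In the brain, cholesterol is made locally, mostly by glial cells, and microglia need prenylated GTPases to move and to engulf.

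The start regions of these genes were read first, because SREBP2 binds short sterol elements beside sites for its partner factors, NF-Y at CCAAT and Sp1 at GGGCGG. For 24 of the 30 genes, the 250 bases before a RefSeq start (build GRCm38.p6) were searched on both strands for 3 motifs. Fdps, Fdft1, Sqle, Fnta, Pggt1b and Stard4 had no such window and were not searched. The sterol element TCACNCCAC was found in 1 of the 24, Hmgcs1, where it starts at -137 from the start of transcription, and in 1.22% of all 27025 genes with such a window. CCAAT was found in 19 of the 24 (79.2%), against 37.5% of all genes, and GGGCGG in 21 (87.5%), against 35.4%. The 27025 genes were not limited to those that passed the filter on low values, as the 24 did. The shares therefore compare unlike sets, and no test was made of them. By branch, CCAAT was present in 5 of 7 trunk genes, 9 of 9 sterol genes, 2 of 4 isoprenoid genes and 3 of 4 control genes. A match describes letters and is not a binding site, and in the printed windows no match overlapped another. The windows of 1 trunk, 1 sterol and 1 isoprenoid gene are printed 5′ to 3′, since each stands for a branch that is described apart. Capitals mark CCAAT, which reads ATTGG when it lies on the other strand, and the sterol element.
Hmgcs1, chr13:119690101-119690350, plus strand: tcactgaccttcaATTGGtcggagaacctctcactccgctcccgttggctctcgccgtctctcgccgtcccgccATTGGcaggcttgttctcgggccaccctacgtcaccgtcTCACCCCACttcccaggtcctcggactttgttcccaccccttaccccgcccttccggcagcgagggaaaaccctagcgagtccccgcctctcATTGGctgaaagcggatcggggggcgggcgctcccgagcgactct
Ebp, chrX:8193513-8193762, minus strand: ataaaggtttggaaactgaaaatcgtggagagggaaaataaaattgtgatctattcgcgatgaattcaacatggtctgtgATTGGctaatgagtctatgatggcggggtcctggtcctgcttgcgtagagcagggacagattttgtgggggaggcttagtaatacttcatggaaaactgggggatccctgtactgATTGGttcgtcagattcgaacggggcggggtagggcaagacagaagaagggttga
Ggps1, chr13:14063489-14063738, minus strand: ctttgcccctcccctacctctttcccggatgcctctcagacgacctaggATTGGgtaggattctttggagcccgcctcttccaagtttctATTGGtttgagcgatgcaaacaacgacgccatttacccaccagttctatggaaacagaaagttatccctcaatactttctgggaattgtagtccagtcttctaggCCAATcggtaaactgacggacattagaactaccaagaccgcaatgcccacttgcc
Hmgcs1 holds 3 CCAAT boxes, starting at -237, -176 and -45, besides its sterol element. Ebp holds 2, at -170 and -55. Ggps1 also holds 3, at -201, -160 and -55, and no match to the sterol element.

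Values are normalized counts, in which the authors divided each library's counts by a size factor, and differences are log2 fold changes of anti-CD22 over IgG on log2 of the normalized count plus 1. Of the 30 genes, 0 passed an adjusted p of 0.05 in limma with Benjamini-Hochberg adjustment over all genes tested, where 1 of 11646 genes (0.00859%) passed. At an unadjusted p under 0.05, 1 of the 30 was higher with anti-CD22 (3.33%), against 6.8% of all genes, and 4 were lower (13.3%), against 5.95% of all genes. The edgeR quasi-likelihood test on reads recovered from 13 libraries called 0 of the 30, with 4 at an unadjusted p under 0.05, and 0 of all genes, with 1027. DESeq2 on the same reads called 2 of the 30, Ggps1 and Aacs, against 0.427% of the genes for which it gave an adjusted p. In direction, 10 of the 30 genes had a positive and 20 a negative log2 fold change, with a median of -0.06, against a median of 0.0011 over all genes.

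**Figure D1:**
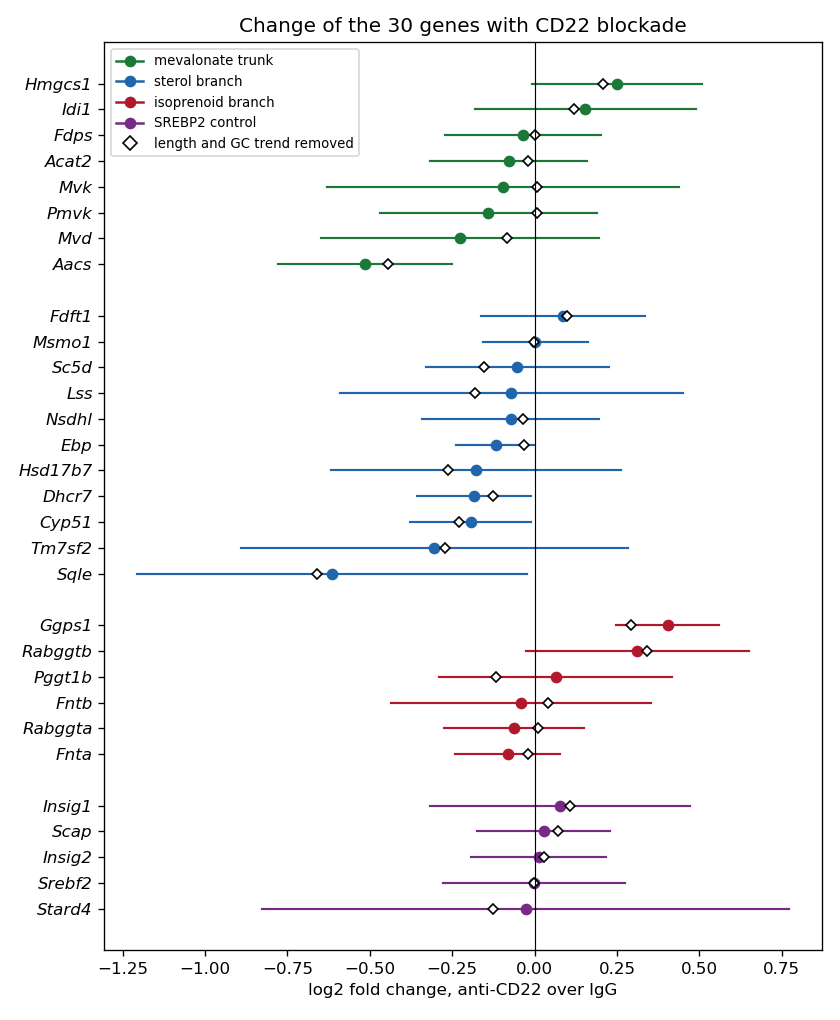
Log2 fold change of anti-CD22 over IgG for each of the 30 genes, by branch. Filled circles are limma values with 95% intervals from 7 libraries per group, and open diamonds are the same value after each library's trend with transcript length and GC content was removed. The intervals of Ggps1, Aacs, Sqle, Cyp51 and Dhcr7 do not reach 0, and Ggps1 is the only one of the 5 on the positive side.

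A property of the libraries moved with the groups. In anti-CD22 replicates 1, 2 and 3, longer transcripts were higher, with a Spearman coefficient across genes of 0.311, 0.287 and 0.328 between transcript length and the library's deviation from the gene's mean. The other 4 anti-CD22 libraries ranged from -0.270 to 0.136 and the IgG libraries from -0.260 to -0.0033. Values after removal of this trend, and of the GC trend, are therefore given for the genes with the smallest p in each branch and related list. With both trends removed, 23 of the 30 genes kept their sign. Recovered reads ranged from 20221836 to 38101421 per library. In bulk libraries, fewer cells of a type and less RNA per cell cannot be told apart.

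The mevalonate trunk did not move as a block. Of its 8 genes, 2 were higher and 6 lower with anti-CD22, and the median log2 fold change was -0.09, or 0.0035 with the trend removed and 0.04 without anti-CD22 replicates 1, 2 and 3. The range ran from -0.51 for Aacs to 0.25 for Hmgcs1, and 0 of 8 passed the adjusted threshold in limma.

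Aacs encodes acetoacetyl-CoA synthetase, which turns the ketone body acetoacetate into a cytosolic building block for sterol and fatty acid synthesis. It lies on chromosome 5 from 125475814 to 125517410 (GRCm38). Its lowest, median and highest values were 570, 707 and 849 normalized counts in anti-CD22 libraries, against 745, 994 and 1263 in IgG libraries. All 7 anti-CD22 libraries fell under the IgG median and 4 lay below every IgG library, so the groups overlapped in part. Means were 705 ± 115 with anti-CD22 and 1010 ± 183 with IgG (SD, n = 7 each), a log2 fold change of -0.51 ± 0.13 (SE), or 1.43-fold lower, with an adjusted p of 0.171 in limma. On the 13 libraries with recovered reads, DESeq2 gave an adjusted p of 0.0498, edgeR 0.388 and limma 0.360. Removal of the length and GC trend gave a log2 fold change of -0.44. Aacs had the smallest p of the trunk genes, at rank 42 of all genes tested and 19 among those lower with anti-CD22.

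Hmgcs1, the cytosolic HMG-CoA synthase, was the only one of the 24 genes searched with a match to the sterol element. It was at 1020, 1250 and 1580 normalized counts (lowest, median, highest) in anti-CD22 libraries, against 815, 1155 and 1251 in IgG libraries. Of the anti-CD22 libraries, 3 lay above every IgG library and the other 4 within the IgG range. The log2 fold change was 0.25 ± 0.12 (SE), with an adjusted p of 0.410 in limma, and 0.21 with the trend removed. Idi1, the isomerase that interconverts the paired isoprenoid units, had values of 275, 340 and 400 normalized counts in anti-CD22 libraries, against 229, 329 and 440 in IgG libraries. The anti-CD22 values all fell inside the IgG range, and the log2 fold change was 0.15 ± 0.16 (SE; adjusted p of 0.710, limma), or 0.12 with the trend removed. Mvd, the decarboxylase that closes the mevalonate steps, had 160, 334 and 449 normalized counts in anti-CD22 libraries, against 268, 395 and 482 in IgG libraries, and 1 anti-CD22 library lay below every IgG library. Its log2 fold change of -0.23 ± 0.20 (SE) had an adjusted p of 0.655 in limma and came to -0.08 with the trend removed. Replicate 3 of anti-CD22 held the lowest Mvd value, and without it the log2 fold change was -0.063; without replicates 1, 2 and 3 it was 0.05. The thiolase Acat2, the kinases Mvk and Pmvk and the synthase Fdps, which makes farnesyl diphosphate, had log2 fold changes between -0.14 and -0.04 with overlapping groups.

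**Figure D2:**
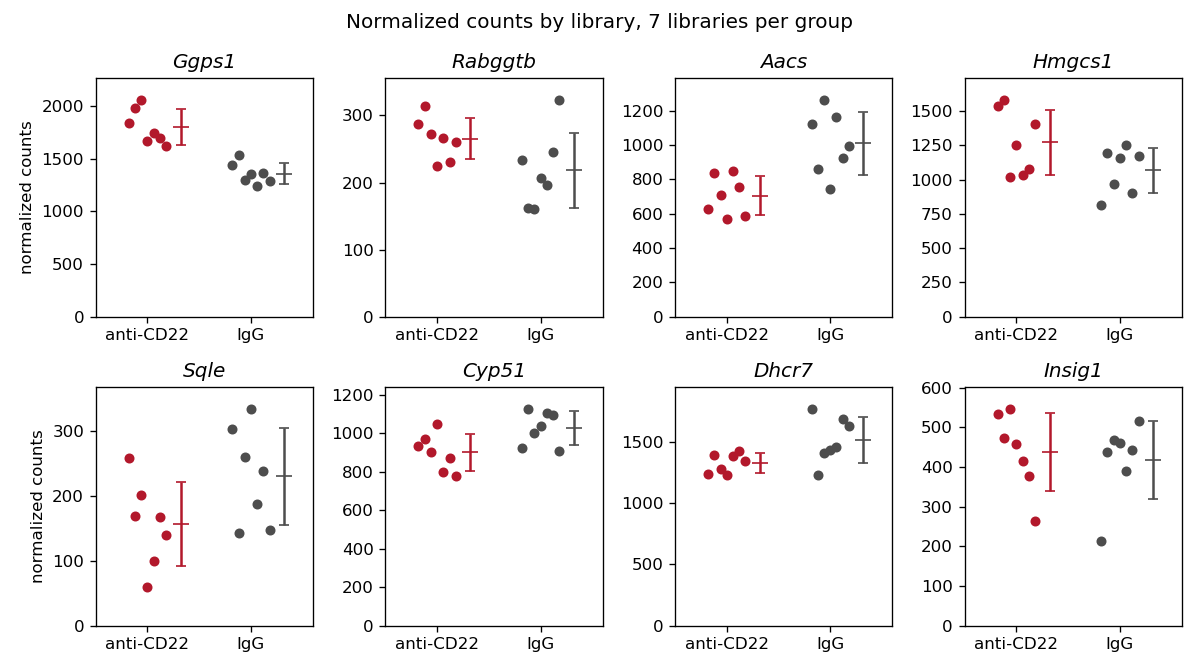
Normalized counts of 8 of the genes in each library, with anti-CD22 left and IgG right in every panel; points are libraries, and the bar is the mean with SD (n = 7 each). The 7 anti-CD22 values of Ggps1, from 1619 to 2058, all lie above the IgG values, while the groups overlap in the other 7 panels.

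The sterol branch was mostly lower with anti-CD22. Of its 11 genes, 9 had a negative log2 fold change (81.8%, against 49.8% of all genes tested) and 2 a positive one, with a median of -0.12, or -0.15 with the length and GC trend removed. At an unadjusted p under 0.05, 3 were lower and 0 higher, and 0 of 11 passed the adjusted threshold in limma. Apart from Sqle and Tm7sf2, the lower genes lay between -0.19 and -0.05.

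Sqle encodes squalene epoxidase, a rate-controlling enzyme of the branch. Its lowest, median and highest values were 59.6, 168 and 258 normalized counts in anti-CD22 libraries, against 143, 238 and 334 in IgG libraries. The groups overlapped, with 6 anti-CD22 libraries below the IgG median and 3 below every IgG library. The log2 fold change was -0.62 ± 0.28 (SE), with a 95% interval of -1.21 to -0.02 and an adjusted p of 0.378 in limma. It was -0.66 with the trend removed and -1.01 without anti-CD22 replicates 1, 2 and 3, and leaving out single libraries moved it between -0.76 and -0.41.

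Cyp51, the lanosterol demethylase, had 777, 904 and 1046 normalized counts (lowest, median, highest) in anti-CD22 libraries, against 908, 1037 and 1126 in IgG libraries. Of the 7 anti-CD22 libraries, 4 lay below every IgG library, and 1 above the IgG median. The log2 fold change was -0.19 ± 0.087 (SE), with an adjusted p of 0.372 in limma, and -0.23 with the trend removed. Dhcr7, the reductase of the last step to cholesterol, had 1233, 1348 and 1430 normalized counts in anti-CD22 libraries, against 1233, 1456 and 1771 in IgG libraries. All 7 anti-CD22 libraries were below the IgG median, but only 1 was below every IgG library. For Dhcr7 the log2 fold change came to -0.18 ± 0.083 (SE), with an adjusted p of 0.372 in limma, or -0.13 with the trend removed. Ebp, the sterol isomerase, had 2504, 2652 and 2830 normalized counts in anti-CD22 libraries, against 2680, 2924 and 3212 in IgG libraries. Again 7 of 7 were below the IgG median and 4 below every IgG library, but the log2 fold change of -0.12 ± 0.058 (SE; adjusted p of 0.400, limma) came to -0.03 with the length and GC trend removed.

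Among the other sterol genes, the log2 fold change was 0.09 for squalene synthase Fdft1 and 0.0026 for the methylsterol oxidase Msmo1. The cyclase Lss, the dehydrogenase Nsdhl, the reductase Hsd17b7, the desaturase Sc5d and the reductase Tm7sf2 ranged from -0.30 to -0.05. Their groups overlapped, and their SEs ran up to 0.280, for Tm7sf2. Of the Fdft1 exons, 18.3% overlap those of cathepsin B, Ctsb, on the opposite strand; Ctsb averaged 141083 normalized counts with anti-CD22 and 145815 with IgG. Library making did not mark strand, so reads from the shared 774 bases cannot be told apart. The largest overlap among the 30 was that of Fdps, the trunk gene, which shares 26.7% of its exon bases with the predicted gene Gm43738 on the same strand. Tm7sf2 shares 12.1% of its exon bases with Vps51 on the same strand, at 1887 normalized counts with anti-CD22 and 2138 with IgG.

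The isoprenoid branch held the gene with the smallest p of the 30. Of its 6 genes, 3 were higher and 3 lower with anti-CD22, the median log2 fold change was 0.01, and the spread ran from -0.08 for Fnta to 0.40 for Ggps1.

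Ggps1 encodes geranylgeranyl diphosphate synthase, which makes the lipid donor for Rap and Rab proteins, and lies on chromosome 13 from 14050659 to 14063488 (GRCm38). It was at 1619, 1742 and 2058 normalized counts (lowest, median, highest) in anti-CD22 libraries, against 1241, 1359 and 1531 in IgG libraries. All 7 anti-CD22 libraries lay above all 7 IgG libraries. Such a separation upward was found for 1 of the 30 genes (3.33%), against 0.137% of all genes tested, and downward for 0 of the 30, against 0.12%. Means were 1801 ± 167 with anti-CD22 and 1359 ± 99.0 with IgG (SD, n = 7 each). The log2 fold change was 0.40 ± 0.075 (SE; 95% interval of 0.25 to 0.56), or 1.32-fold, and ranked 4 of 11646 by p, but the adjusted p in limma was 0.0890.

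The call for Ggps1 depended on the test and on single libraries, while its direction did not. DESeq2 gave an adjusted p of 0.0010 and edgeR one of 0.260, both on 13 libraries, without anti-CD22 replicate 3. In limma on those 13 libraries the adjusted p was 0.250, and why the 3 tools differed was not tested. Without anti-CD22 replicate 7, the adjusted p in limma was 0.0264, in a fit where 43 genes passed, and without any other single library it stayed above the threshold, up to 0.250. Once the length and GC trend was removed, the log2 fold change was 0.29 (adjusted p of 0.191, limma), and without anti-CD22 replicates 1, 2 and 3, which held the 3 highest Ggps1 values, it was 0.31 (adjusted p of 0.611, limma). Arid4b, a chromatin gene that starts on the other strand, shares 257 bases (5.44%) with the Ggps1 exons. Its log2 fold change was 0.26 ± 0.12 (SE; adjusted p of 0.397, limma), or 0.10 with the trend removed, and its part in the Ggps1 value was not tested.

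**Figure D3:**
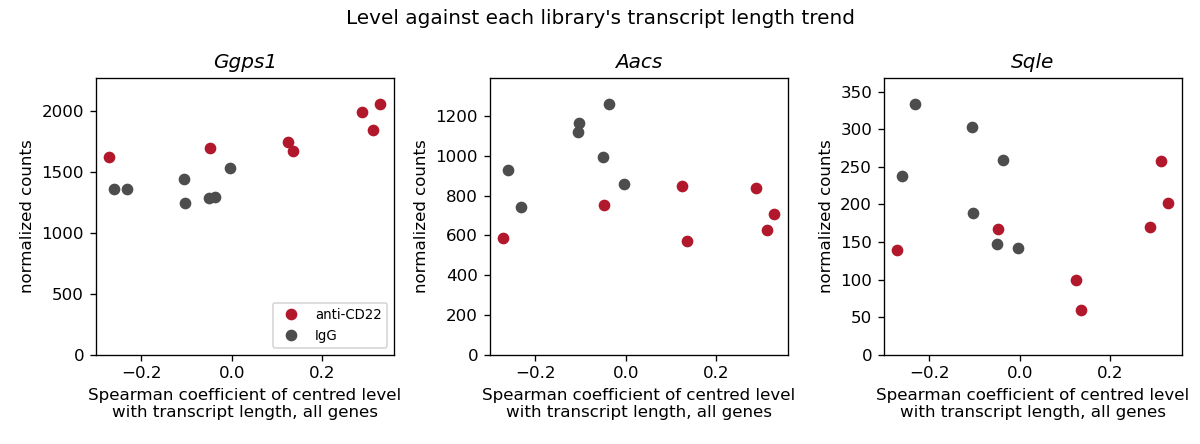
Normalized counts of Ggps1, Aacs and Sqle in each library (vertical axes) against the library's Spearman coefficient between transcript length and its deviation from the gene mean over all genes tested (horizontal axes), with anti-CD22 in red and IgG in gray. The 3 anti-CD22 libraries with coefficients of 0.287 to 0.328 have the highest Ggps1 values, and the other 4 anti-CD22 libraries, at 1619 to 1742, still lie above the IgG maximum of 1531.

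Set against other genes of the pathway, Ggps1 had higher median ratios with anti-CD22. The ratio of Ggps1 to Fdps was 1.93, 2.62 and 3.38 (lowest, median, highest) in anti-CD22 libraries, against 1.45, 1.90 and 2.56 in IgG libraries. The ratio to Fdft1, at the branch toward cholesterol, was 2.94, 3.95 and 5.08 in anti-CD22 libraries, against 2.88, 3.09 and 3.66 in IgG libraries. The ratio to Sqle, a later step, was 7.13, 11.6 and 28.0 in anti-CD22 libraries, against 4.06, 5.71 and 10.7 in IgG libraries. All 3 pairs of ranges overlapped, and no test was made of ratios whose parts were already described. These ratios of normalized counts were not corrected for transcript length, and they still carry the length and GC trend, which moved with the groups. With that trend removed, log2 fold changes were 0.29 for Ggps1, 0.00069 for Fdps, 0.10 for Fdft1 and -0.66 for Sqle.

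Rabggtb, the catalytic subunit of the Rab prenyltransferase, had 225, 266 and 314 normalized counts (lowest, median, highest) in anti-CD22 libraries, against 161, 206 and 323 in IgG libraries. In all 7 anti-CD22 libraries it exceeded the IgG median, yet in none the highest IgG library. Rabggtb had a log2 fold change of 0.31 ± 0.16 (SE), with an adjusted p of 0.427 in limma, and of 0.34 with the trend removed. Its partner subunit Rabggta had a log2 fold change of -0.06. Fnta, the subunit shared by farnesyltransferase and the first geranylgeranyl transferase, had 2350, 2563 and 3181 normalized counts in anti-CD22 libraries, against 2634, 2782 and 3153 in IgG libraries. Although 4 anti-CD22 libraries lay below every IgG library, 1 lay above them all, and the log2 fold change was -0.08 ± 0.076 (SE; adjusted p of 0.670, limma), or -0.02 with the trend removed. The catalytic subunits that pair with it, Fntb for farnesyl and Pggt1b for geranylgeranyl transfer, had log2 fold changes of -0.04 and 0.06, with SEs of 0.189 and 0.169.

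The control genes gave differences close to 0. Insig1, which retains SCAP in the endoplasmic reticulum and is itself induced by SREBP2, had 263, 457 and 546 normalized counts (lowest, median, highest) in anti-CD22 libraries, against 212, 442 and 515 in IgG libraries. The groups covered nearly the same range, and the log2 fold change was 0.08 ± 0.19 (SE; 95% interval of -0.32 to 0.47; adjusted p of 0.893, limma), or 0.11 with the trend removed. Scap had 2478, 2606 and 3324 normalized counts in anti-CD22 libraries, against 2019, 2583 and 3172 in IgG libraries. Only 1 anti-CD22 library lay above every IgG library, and the log2 fold change was 0.03 ± 0.097 (SE; 95% interval of -0.17 to 0.23; adjusted p of 0.926, limma), or 0.07 with the trend removed. Insig2, the second retention protein, had 2207, 2757 and 3070 normalized counts in anti-CD22 libraries, against 2297, 2513 and 3589 in IgG libraries. Its log2 fold change was 0.01 ± 0.097 (SE; 95% interval of -0.19 to 0.22; adjusted p of 0.974, limma), or 0.03 with the trend removed, and again the groups overlapped. Srebf2, the gene of SREBP2, had a log2 fold change of -0.0030 (95% interval of -0.28 to 0.27). Stard4, a sterol carrier at 9.36 normalized counts per kilobase with anti-CD22 and 10.2 with IgG, had one of -0.03 (95% interval of -0.83 to 0.77). The intervals of Scap and Insig2 stayed within 0.23 of 0 on the log2 scale, and that of Stard4, the least abundant of the 30 per kilobase, was the widest.

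**Figure D4:**
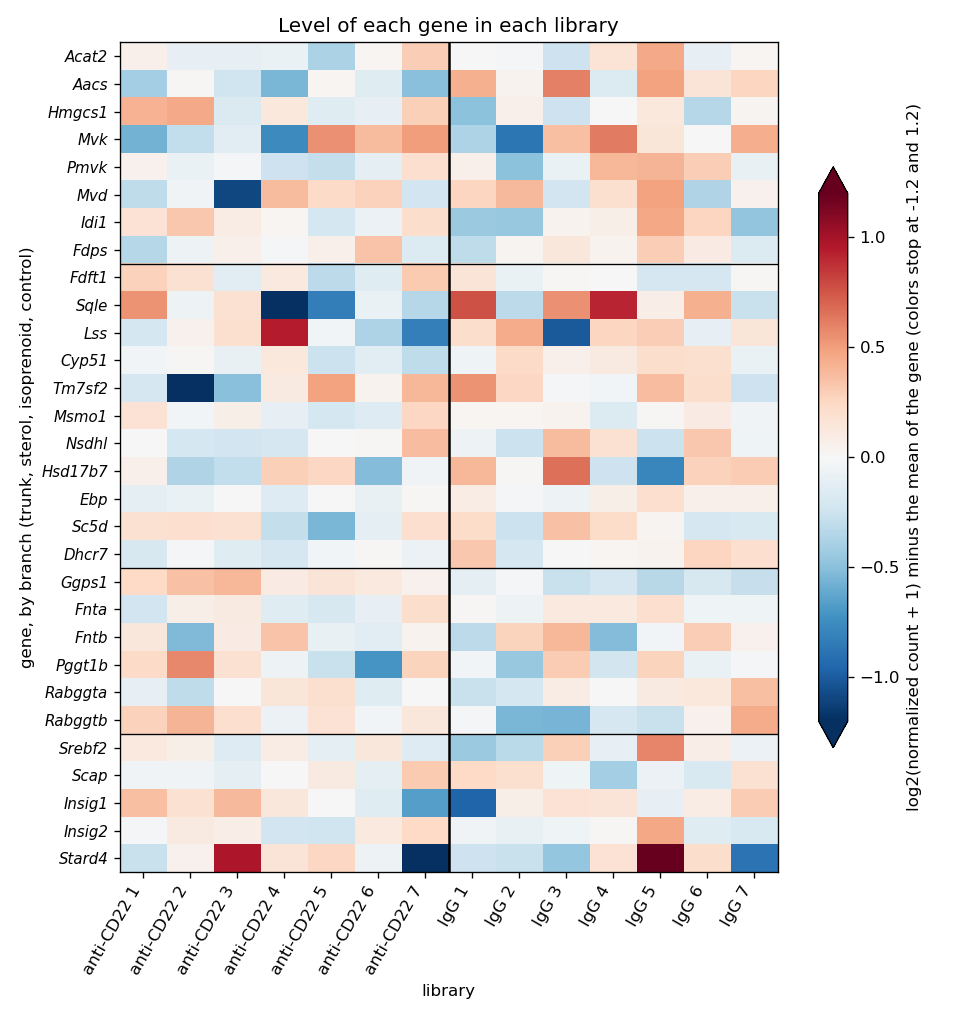
Level of each of the 30 genes (rows, by branch) in each library (columns, anti-CD22 left of IgG) as log2 of the normalized count plus 1 minus the gene's mean; red is above and blue below the mean, and colors stop at the ends of the scale. The Ggps1 row is red or near 0 in every anti-CD22 library and blue or near 0 in every IgG library, while most other rows mix red and blue within each group.

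Covariation within groups was then measured. After group means were removed, Insig1 was correlated with 12 genes of the trunk, sterol, isoprenoid and control groups over the 14 libraries, and 0 of the 12 pairs passed Benjamini-Hochberg adjustment in a permutation test. The pair with the smallest p, Insig1 with Cyp51, had Pearson's r of 0.48 (permutation p of 0.0931, adjusted 0.829) and Spearman's coefficient of 0.15 (permutation p of 0.632, adjusted 0.952). Without anti-CD22 replicate 7 and IgG replicate 1, the libraries farthest from the Insig1 median, r was -0.06, so the relation rests on those libraries. Described over all pairs of genes, the median r was 0.14 for the 28 trunk pairs, -0.01 for the 55 sterol pairs, -0.04 for the 15 isoprenoid pairs and 0.08 for the 10 control pairs. These pairs share libraries and depth, and no test was made of them.

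Per kilobase of the longest transcript, the sorted microglia expressed the branches at uneven levels. Ebp was the most abundant of the 30, at 1540 normalized counts per kilobase with anti-CD22 and 1673 with IgG, and the shared subunit Fnta came next, at 1393 with anti-CD22 and 1469 with IgG. Insig2, Msmo1 and Scap followed, at 978, 764 and 643 with anti-CD22, against 973, 759 and 635 with IgG. At the other end were Sqle, at 35.1 with anti-CD22 and 51.6 with IgG, Hsd17b7, at 40.1 with anti-CD22 and 46.5 with IgG, and Lss, at 30.5 with anti-CD22 and 31.3 with IgG. Tm7sf2 and Stard4 were lowest in both groups. Ggps1 had 424 per kilobase in anti-CD22 libraries, more than Rabggta at 396 and Acat2 at 341, and 320 in IgG libraries, less than Rabggta at 415 and Acat2 at 361.

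**Figure D5:**
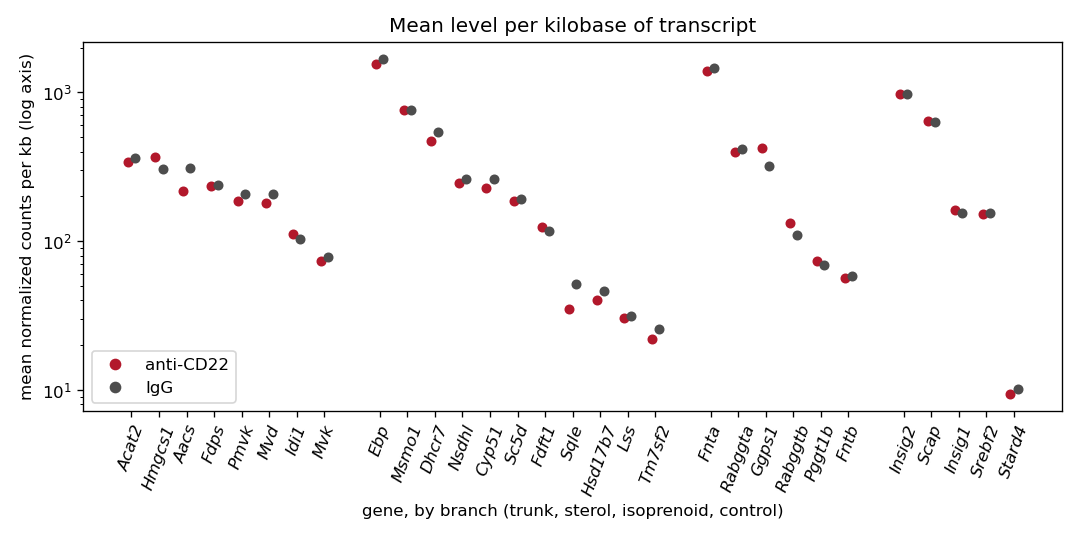
Mean normalized counts per kilobase of the longest transcript (log axis) for each of the 30 genes, by branch, with anti-CD22 in red left of IgG in gray; each point is a mean of 7 libraries. Within the sterol branch the levels span from 1540 (Ebp) to 22.2 (Tm7sf2) with anti-CD22.

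Related genes outside the 30 gave the setting. Of 19 tested genes of sterol sensing, transport and esterification, 9 were higher and 10 lower with anti-CD22, and 0 passed the adjusted threshold in limma. The smallest p there belonged to Por, the reductase that feeds electrons to Cyp51 and squalene epoxidase, at 4516 ± 408 normalized counts with anti-CD22 and 4917 ± 161 with IgG (SD, n = 7 each; log2 fold change of -0.13, or -0.02 with the trend removed; adjusted p of 0.386, limma). Nr1h2, a nuclear receptor for oxysterols, had a log2 fold change of -0.19 ± 0.099 (SE), or -0.04 with the trend removed. Of 11 other users of isoprenoids, 6 were higher and 5 lower, and 0 passed.

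Chml, an escort protein that presents Rab proteins to their prenyltransferase, differed most among these users. Its lowest, median and highest values were 38.0, 133 and 266 normalized counts in anti-CD22 libraries, against 19.96, 55.6 and 93.4 in IgG libraries. Of the anti-CD22 libraries, 6 lay above every IgG library and 1 below the IgG median. Its log2 fold change was 1.37 ± 0.40 (SE), with an adjusted p of 0.215 in limma, or 1.19 with the trend removed. Rce1, the protease that trims prenylated proteins, had a log2 fold change of -0.16 ± 0.084 (SE), with 7 of 7 anti-CD22 libraries below the IgG median, and -0.02 with the trend removed. Of 9 prenylated GTPases of microglia, 7 were higher and 2 lower, all within -0.11 and 0.14, and 0 passed. Rap1b had a log2 fold change of 0.14 ± 0.068 (SE), or 0.09 with the trend removed, and Rab7 one of -0.07 ± 0.045 (SE), or -0.02.

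Markers of microglia and of 6 other cell types were read. Of 8 microglia markers, 5 were higher and 3 lower with anti-CD22, with log2 fold changes between -0.17 (C1qa) and 0.14 (Sall1), and none passed the adjusted threshold in limma. With the length and GC trend removed, log2 fold changes were -0.00047 for C1qa and 0.087 for Sall1. C1qa averaged 113552 normalized counts with anti-CD22 and 127148 with IgG, and P2ry12 averaged 226736 with anti-CD22 and 210366 with IgG. Cd22 itself, whose protein the antibody blocks, was at 1481 ± 184 normalized counts with anti-CD22 and 1469 ± 279 with IgG (SD, n = 7 each).

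Oligodendrocytes make much cholesterol. The summed level of their 8 markers was 3873 to 4849 normalized counts in anti-CD22 libraries and 4561 to 5773 in IgG libraries, 4 of 4 tested markers were lower with anti-CD22 and none passed, and 6 of 8 were at 0 in some library. Most of the sum was Cnp, which averaged 3535 normalized counts with anti-CD22 and 3988 with IgG. Its log2 fold change was -0.17, or -0.10 with the trend removed. Astrocyte markers summed to 6621 to 8461 with anti-CD22 and 5933 to 8592 with IgG, nearly all of it Slc1a3, at a mean of 7492 with anti-CD22 and 7454 with IgG. The other 6 astrocyte markers averaged at most 71.8 with anti-CD22 and 78.6 with IgG (both Aldoc), and 4 of the 7 were at 0 in some library. Neuron markers summed to 68.9 to 192 with anti-CD22 and 138 to 211 with IgG, and 4 of 5 were at 0 in some library. The fifth, Syp, a synaptic vesicle gene, averaged 82.1 with anti-CD22 and 134 with IgG, with 6 of 7 anti-CD22 libraries below every IgG library, a log2 fold change of -0.78 and an adjusted p of 0.235 in limma. Endothelial markers summed to 858 to 1226 with anti-CD22 and 635 to 1201 with IgG, and Cldn5 was at 0 in every library. Nearly all of the sum was Pecam1, at a mean of 999.7 with anti-CD22 and 917.8 with IgG. Of the 2 tested, Pecam1 was higher (log2 fold change of 0.14). The other, Flt1, was lower, at 17.2 with anti-CD22 and 32.2 with IgG (log2 fold change of -1.21). Border macrophage markers summed to 200 to 1125 with anti-CD22 and 56.0 to 747 with IgG, with 3 of 3 tested higher and none past the threshold. Neutrophil markers summed to 0 to 3484 with anti-CD22 and 2.23 to 16801 with IgG, the highest in IgG replicate 1. By log2 fold change 3 of 3 tested were lower, none past the threshold, as in S100a8 at -0.81 ± 2.07 (SE). Their medians were higher with anti-CD22: 368 against 139 for S100a8, 391 against 219 for S100a9 and 302 against 168 for Camp. The part of these cells in the lower sterol values or the higher Ggps1 value was not tested.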

How the data were processed

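RNA sequencing was done on microglia sorted from mice aged 18 months, with 7 anti-CD22 and 7 IgG libraries. Per the submitters' processing notes, bcl2fastq, STAR, the build mm10 and DESeq2 were used. The sources used here give no versions, annotation or counting tool. Per the labels' protocols, cDNA was made with a SMART-Seq kit and libraries with Nextera XT from paired reads of 100 bases. The deposited values are normalized counts, a signal: the authors had divided the counts by 1 size factor per library. Of 24421 entries, 27 with names turned into dates (at most 0.149% of a library) were left out, and 0 columns lacked a sample.

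Limma was run on log2(normalized count + 1) for the 11646 genes with a mean of at least 10, two-sided, with a mean-variance trend. The named genes were those with the smallest p in each branch (4 in branches of 8 or more, 3 in smaller ones) and 2 in each related list. The members and lists were chosen with earlier results of these data known. Whole reads (tolerance 0.1 reads) were recovered for 13 libraries, for edgeR and DESeq2. The values of anti-CD22 replicate 3 were also whole multiples of a step within the tolerance. They were left out by choice because that step, 1.01, is close to 1, while anti-CD22 replicate 4, with a step of 1.03, was kept. DESeq2 gave no adjusted p for 6476 genes. Reads are not independent molecules, and the median SE of a member's log2 fold change was 0.13. Coordinates, overlaps, transcript length and GC content came from GENCODE vM21, on GRCm38 (mm10), known for 99.4% of tested genes, and start regions from RefSeq. The length and GC trend was removed per library with natural splines. Correlations used 100000 permutations within groups. Other settings were pseudocounts, filters, scalings, variance models, array weights, a replicate block and leaving out libraries, and the scripts were tested on simulated data. Tools were R 4.3.3, limma 3.58.1, edgeR 4.0.16, DESeq2 1.42.0, Python 3.11.15, pandas 2.3.3, scipy 1.17.1 and matplotlib 3.10.9.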

Additional observations from a re-analysis of the deposited data

Results flagged for a closer look

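Single libraries stood apart from the other 6 of their group by Dixon's test for 5 of the 60 combinations of gene and group, and chance flags about 1 in 20 groups. With anti-CD22, Lss was at 396 normalized counts in replicate 4, where the other libraries held 115 to 234. Nsdhl was at 705 in anti-CD22 replicate 7, with the others at 464 to 553. With IgG, Insig1 was at 212 in replicate 1, below the others at 389 to 515. IgG replicate 5 stood apart for 2 control genes, Insig2 at 3589, against 2297 to 2638 in the others, and Stard4 at 133, against 23.5 to 51.5.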

How the results depend on the processing

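Deviations of anti-CD22 and IgG libraries with the same replicate number correlated at -0.15 to 0.16. Best correlation with their own number was seen for 0 anti-CD22 and 2 IgG libraries. A check by single numbers cannot show whether the design paired libraries or whether several numbers shared a batch. With a replicate block, 0 of the 30 genes passed, and Ggps1 had an adjusted p of 0.0763 in limma. The count past the adjusted threshold was 0 in limma (1 over all genes) and 1 with array weights (Ggps1, with 8 over all genes). It was 2 with DESeq2 (Ggps1 and Aacs, with 40 over all genes). When single libraries were left out it was 0 to 1, the 1 without anti-CD22 replicate 7, where 43 genes passed. At a threshold of 0.10 in limma it was 1 (Ggps1), and the count over all genes was not taken there. The count at an unadjusted p under 0.05 was 5, and 2 to 6 when single libraries were left out, lowest without IgG replicate 6. Among the 30 genes, 17 changed sign under some setting, none of them called. With the length and GC trend removed, alone or with the replicate block, log2 fold changes were 0.00069 for Fdps, 0.040 for Fntb, -0.00080 for Msmo1, 0.0063 for Mvk, -0.12 for Pggt1b, 0.0079 for Pmvk and 0.0095 for Rabggta, and r of Insig1 with Pggt1b was -0.15. Without anti-CD22 replicates 1, 2 and 3 they were 0.036 for Fdps, 0.017 for Fntb, -0.13 for Insig1, -0.025 for Insig2, -0.050 for Msmo1, 0.049 for Mvd, 0.12 for Mvk, 0.012 for Nsdhl, -0.16 for Pggt1b, 0.015 for Rabggta and 0.10 for Tm7sf2. They were -0.0046 for Insig2 and -0.0016 for Msmo1 in DESeq2, -0.0013 for Insig2 in edgeR, 0.0023 for Lss and 0.081 for Stard4 with array weights, and 0.0094 for Srebf2 at equal totals. In limma on the 13 libraries with recovered reads, a setting chosen after seeing the data, they were -0.00044 for Insig2, -0.0087 for Msmo1 and 0.023 for Srebf2. Without the libraries farthest from the Insig1 median, r with Insig1 was -0.059 for Cyp51, 0.58 for Fdft1, 0.024 for Fnta, -0.095 for Idi1, 0.54 for Msmo1, 0.30 for Sqle and -0.31 for Stard4. Leaving out single libraries gave -0.25 to 0.022 for Mvk, -0.095 to 0.019 for Fdps, -0.24 to 0.061 for Lss, -0.039 to 0.037 for Msmo1, -0.099 to 0.035 for Sc5d, -0.13 to 0.044 for Fntb, -0.027 to 0.19 for Pggt1b, -0.077 to 0.094 for Srebf2, -0.038 to 0.071 for Scap, -0.078 to 0.19 for Insig1, -0.026 to 0.090 for Insig2 and -0.19 to 0.23 for Stard4. The cause of these changes was not tested. The sterol median stayed negative under every setting run, at -0.17 to -0.099. The other 3 branch medians changed sign under some: the trunk median, at -0.09, ranged up to 0.043, the isoprenoid median, at 0.01, down to -0.017, and the control median, at 0.01, down to -0.070. No scaling moved the median of all genes by more than 0.0123. The 95% intervals of low genes such as Stard4 and Tm7sf2 were wide, so shifts of the size seen in Cyp51 were not detectable for them at this depth and number of libraries.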
